A study of Mus musculus with 24 samples.

Results

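The 6 libraries labelled PV were set against the 18 libraries labelled EXC, SST or VIP, as 1 group, in a series of 24 bulk RNA-seq libraries of neurons sorted from adult mouse cortex. A gene was called separated when its lowest PV library lay above, or its highest PV library below, every one of the other 18 libraries in CPM (the reads of a gene divided by all reads of its library, times 1000000). Of 14890 genes with enough reads to be tested, 154 (1.03%) were separated with PV higher and 1089 (7.31%) with PV lower. When libraries were instead scaled by TMM, which sets each library's level from the bulk of its genes, the split was 597 genes higher (4.01%) and 441 lower (2.96%). All 154 higher genes and 441 of the 1089 lower genes were separated under both scalings, and these are the genes described first. Because the libraries themselves chose these genes, the p-values given for them describe the same values again and add no independent support.

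The PV libraries came from 3 male and 3 female samples, EXC from 4 and 2, SST from 4 and 2, and VIP from 2 and 4. Cells were live by exclusion of the dye DAPI and carried GFP or tdTomato from a transgenic reporter line. The labels name neither the driver of each reporter nor the ages or number of animals behind a library. Whether replicates are different animals is not stated either, and the p-values therefore cover just the spread among these libraries, which may be technical. All 6 PV libraries and 5 EXC libraries were in sequencing pool POOL6188, and no SST or VIP library was.

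Parvalbumin neurons are the fast-spiking inhibitory cells of the cortex: basket cells, which contact cell bodies, and chandelier cells, which contact the start of the axon. They fire long trains of brief action potentials, release GABA with little delay, are wrapped in a lattice of extracellular matrix called the perineuronal net, and are rich in mitochondria. Pvalb encodes parvalbumin, a slow calcium buffer of the cytosol that gives the class its name.

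The PV libraries were the shallowest, with 1548907 to 4653119 reads against 4370732 to 15978459 in the others, so that 10 CPM stood for 15.5 reads in PV replicate 6. Genes of the mitochondrial genome took 35.1% ± 13.3 of the reads in PV (SD, n = 6) and 7.82% ± 4.01 in the other libraries (n = 18), an exact permutation test giving p = 4.46e-05 (two-sided). The PV libraries held 45.3%, 32.7%, 35.0%, 30.2%, 14.4% and 52.9% in the order of replicates 1 to 6. PV replicate 5, at 14.4%, lay below VIP replicates 2 (14.6%) and 5 (16.6%), so the groups overlapped. A large mitochondrial share lowers the plain CPM of every other gene in that library. The median log2 fold change over all genes, PV against the mean of the other subtypes, was -0.10 with TMM and -0.57 with library totals, a shift of -0.47. Higher calls in plain CPM are therefore made against this shift and lower calls with it. When mitochondrial genes were left out of the totals, the split was 658 higher and 429 lower.

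**Figure D1:**
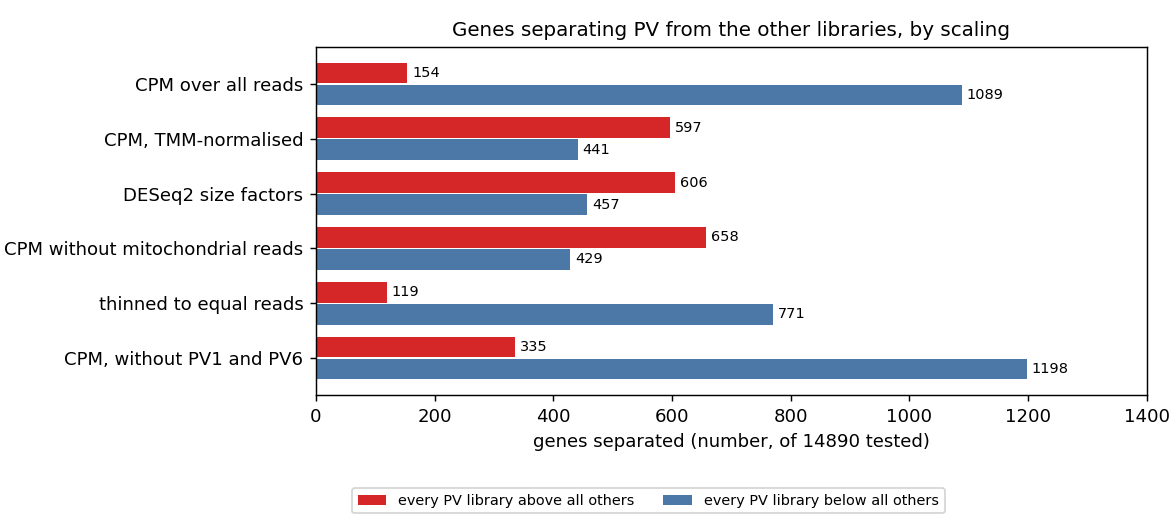
Number of genes, of 14890 tested, whose 6 PV libraries all lay above (red) or all below (blue) the 18 other libraries, under 6 ways of scaling or choosing the libraries (PV1 is PV replicate 1). The higher set grew from 154 genes in plain CPM to 597 with TMM while the lower set shrank from 1089 to 441.

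Marker levels went with the label PV. A list of 20 PV interneuron markers had all 20 members higher in PV at an adjusted p under 0.05 (edgeR quasi-likelihood test, PV against the mean of EXC, SST and VIP), where 20.4% of all genes tested were called higher. The median log2 fold change of the list was 2.83. The 9 separated members were Pvalb, Syt2, Cox6a2, Lgi2, Cplx1, Nefh, Akr1c18, Ppargc1a and Eya4. Of 9 chandelier cell markers tested 3 were called higher and 1 lower (20.4% and 23.6% of all genes). Of 12 pan-GABAergic markers 9 were called higher, and 2 were called higher against each of EXC, SST and VIP (6.48% of all genes). Of these 12, 0 were separated in plain CPM and 2 were separated higher with TMM. Gad1, which makes GABA, ran from 622 to 1413 CPM in PV (median 1082), from 704 to 1160 in SST, from 1009 to 1774 in VIP and from 76.3 to 174 in EXC. Vip had at most 1.07 CPM in PV against at least 1807 in VIP. Sst ran from 6.54 to 112 CPM in PV, with PV replicates 3 (87.8) and 4 (112) highest, against 778 to 1739 in SST. Slc17a7, the vesicular glutamate transporter, ran from 9.67 to 18.9 CPM in PV and from 175 to 816 in EXC.

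Pvalb ranked first among the separated higher genes with a mean of at least 10 CPM in PV, by the ratio of the lowest PV library to the highest other library with 0.5 CPM added to both. Its CPM in PV replicates 1 to 6 was 120, 160, 154, 183, 228 and 107. The other libraries held 0.588 to 2.89 in EXC, 1.41 to 6.20 in SST and 0.129 to 0.953 in VIP. The lowest PV library was thus 17.3 times the highest other one, SST replicate 6, and the groups lay far apart. The log2 fold change was 7.42 ± 0.25 (SE) against the mean of the 3 subtypes (adjusted p = 1.58e-17, edgeR).

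Syt2 encodes synaptotagmin-2, a fast calcium sensor for vesicle release. Its CPM in PV replicates 1 to 6 was 354, 581, 324, 390, 731 and 216, and no other library exceeded 18.3. The gap was 11.8-fold, and the log2 fold change was 6.49 ± 0.25.

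The promoters of these genes are shown because they are the members furthest from the other libraries, with that of Ift27, the neighbour of Pvalb described further on. Each is the 250 bases before an annotated RefSeq start in GRCm38.p6, read 5′ to 3′ in the direction of the gene: Pvalb at chr15:78206401-78206650 (minus strand), Ift27 at chr15:78174082-78174331 (minus strand) and Syt2 at chr1:134646362-134646611 (plus strand). Capitals mark a match to the estrogen-related receptor element TNAAGGTCA on either strand.
Pvalb: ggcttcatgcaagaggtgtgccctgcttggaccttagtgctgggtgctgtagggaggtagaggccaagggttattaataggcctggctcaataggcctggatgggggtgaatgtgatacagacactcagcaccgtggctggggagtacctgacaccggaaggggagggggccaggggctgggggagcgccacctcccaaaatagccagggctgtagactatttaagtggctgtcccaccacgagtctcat
Ift27: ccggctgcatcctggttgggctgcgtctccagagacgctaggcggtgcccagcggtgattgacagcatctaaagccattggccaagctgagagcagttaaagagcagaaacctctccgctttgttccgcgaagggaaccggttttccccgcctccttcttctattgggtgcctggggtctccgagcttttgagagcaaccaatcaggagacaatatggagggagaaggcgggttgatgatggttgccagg
Syt2: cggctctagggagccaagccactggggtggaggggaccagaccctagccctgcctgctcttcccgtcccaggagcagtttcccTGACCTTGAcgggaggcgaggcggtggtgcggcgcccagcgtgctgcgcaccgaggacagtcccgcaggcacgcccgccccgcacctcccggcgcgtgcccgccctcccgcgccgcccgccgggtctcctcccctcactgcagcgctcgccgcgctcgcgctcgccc
The element was searched because Esrrg, an estrogen-related receptor, was itself separated. Its match in Syt2 reads TGACCTTGA and lies on the opposite strand, starting 167 bases before the start site. The other annotated Syt2 start, with its 250 bases at chr1:134709050-134709299, and that of Pvalb, at chr15:78204238-78204487, held no match. Of the 97 separated higher genes outside the cilia and ependymal lists that have a promoter entry, 2 (2.06%) held it, Syt2 and Acsl6, against 0.853% of the 10906 tested genes with an entry. With 2 genes this is a description. The X-box of the RFX factors, searched on both strands, was in 0 of 15 cilia and ependymal genes with an entry and in 0.688% of the tested genes. Of the 97 genes outside those lists 1 (1.03%) held it, Cfap45, which is also named for cilia. With so few genes these counts are a description too. A MEF2 element, searched on both strands, was in 0 of the 112 separated higher genes with an entry and in 0.128% of the tested genes.

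Genes of transmitter release split by paralogue. Of 32 release genes tested, 13 were called higher and 10 lower (20.4% and 23.6% of all genes), and the list's median log2 fold change was -0.0028. Separated higher were Syt2, Cplx1 and Vamp1, and separated lower in plain CPM were Syt5, Syt6, Syt9, Syt10, Cplx2 and Syn3, of which Syt10 was not separated with TMM. Cplx1, a complexin that clamps and triggers the release machinery, ran from 700 to 1355 CPM in PV (median 1016), above the highest other library at 388. Cplx2, its close relative, ran the other way, from 51.4 to 91.7 CPM in PV (median 75.1) against 457 to 1562 elsewhere. Both complexins left no overlap between PV and the rest. Vamp1, a vesicle SNARE, ran from 84.6 to 250 CPM in PV (median 172) and reached at most 64.9 elsewhere. Syt6 had 0 reads in PV replicates 1 and 2 and at most 4.64 CPM in PV, against 14.5 to 133 elsewhere.

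Shares within pairs of related genes do not depend on how libraries are scaled, and the length-scaled values the authors deposited (size-factor-adjusted RPKM) allow 2 genes to be compared. The 11 pairs were chosen after their values were seen. Each holds a gene that was itself separated, so separation of the shares was partly fixed by the choice and adds no independent support. Cplx1 made up 94.5% to 98.3% of the Cplx1 and Cplx2 sum in PV, 50.0% to 65.6% in SST, 19.6% to 42% in VIP and 7.32% to 18.3% in EXC. Syt2 made up 10.6% to 17.8% of the Syt2 and Syt1 sum in PV and at most 0.333% elsewhere, so Syt1 remained the larger of the 2 in PV. Vamp1 made up 5.89% to 11.8% of the sum with Vamp2 in PV and at most 2.96% elsewhere. In these 3 pairs every PV library lay beyond all others. The same held for Cacna2d2 with Cacna2d1, for Scn1a with Scn2a and with Scn3a, for Ldhb with Ldha, for Kcnc1 with Kcna4 and for Nefh with Nefl. It did not hold for Cox6a2 with Cox6a1, where VIP replicate 1 reached 10.4% and the lowest PV library was at 10.3%, or for Hapln4 with Hapln1, where EXC replicate 5 reached 94.2% against 78.7% to 85.7% in PV.

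**Figure D2:**
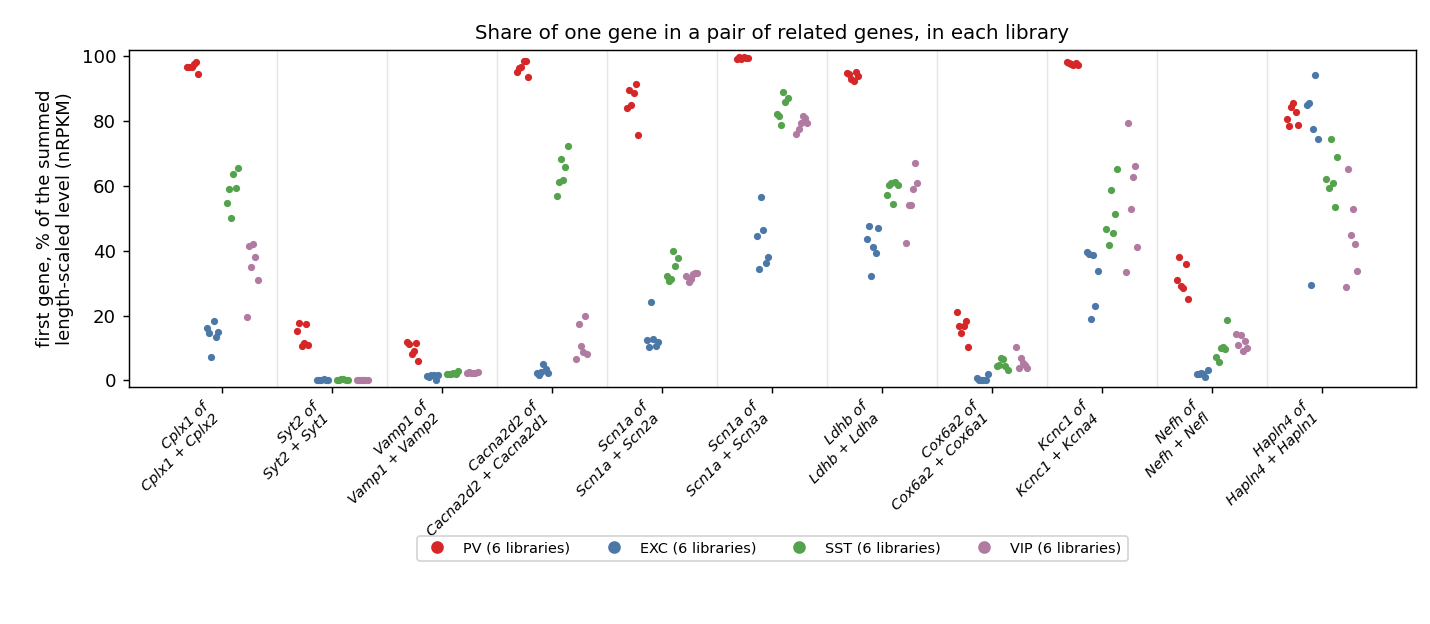
Share of the first gene in the summed length-scaled level of 2 related genes, in percent, for 11 pairs, with 1 point per library. In 9 of the 11 pairs all 6 PV points lie above the 18 others, while Cox6a2 and Hapln4 overlap.

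Voltage-gated channels differed in both directions. Of 37 Kv channel genes tested, 17 were called higher and 14 lower (20.4% and 23.6% of all genes), and the median was -0.05. Separated higher were Kcng4 and Kcns3, which encode silent subunits that modify Kv2 channels. Kcng4 ran from 9.68 to 40.4 CPM in PV (median 24.5) and reached 1.71 in EXC replicate 6, its highest level elsewhere. Kcns3 ran from 29.7 to 63.0 CPM (median 39.8) against at most 16.2. Kcnb2, a Kv2 pore gene, was separated with PV lower in plain CPM, as were Kcna4, Kcnd3, Kcng3, Kcnip3, Kcns2 and Kcnv1. With TMM 6 Kv genes stayed separated lower and 11 were separated higher. Kcna4, a fast-inactivating Kv1 subunit, ran from 6.03 to 11.4 CPM in PV (median 8.50) against 72.0 to 327. Kcnd3, the Kv4 A-type subunit, ran from 16.6 to 48.4 CPM (median 24.8) against 162 to 293.

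The Kv3 subunit gene Kcnc1, which supports fast repolarisation, missed separation in plain CPM by 1 library. Its PV values were 394 to 928 CPM (median 639), and VIP replicate 2 reached 486. Kcnc2 ran from 601 to 1197 CPM in PV and from 471 to 828 in SST, so PV overlapped SST but not EXC (at most 39.8) or VIP (at most 314). The log2 fold change of Kcnc2 was 5.08 against EXC, 2.19 against VIP and 0.81 against SST. Both genes were separated higher with TMM.

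Sodium channel genes showed an exchange of pore subunits. Scn2a, a subunit of many neurons including excitatory ones, ran from 110 to 196 CPM in PV (median 133) and from 669 to 1142 elsewhere. Scn3a ran from 2.81 to 8.94 CPM in PV (median 5.40) and from 97.3 to 266 elsewhere, a gap of 10.9-fold. Scn3b, an auxiliary subunit, was also separated lower. Scn1a, the subunit most associated with fast-spiking cells, was the reverse, from 591 to 1298 CPM in PV (median 817), and missed separation through SST replicate 4 at 634. The share of Scn1a in the length-scaled Scn1a and Scn2a sum was 75.7% to 91.6% in PV and at most 39.9% elsewhere.

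Calcium channel genes were mostly lower. Of 18 tested, 12 were called lower and 4 higher (23.6% and 20.4% of all genes), with a median log2 fold change of -1.14 beside -0.10 for all genes, and 9 were separated lower in plain CPM and 8 with TMM. Cacna1e, the R-type pore subunit, ran from 38.2 to 63.1 CPM in PV (median 48.9) against 227 to 1952, with EXC replicate 6 highest. Cacna2d1, an alpha2delta auxiliary subunit, ran from 3.44 to 12.3 CPM in PV (median 9.72) against 99.6 to 559. Its relative Cacna2d2 ran from 129 to 286 CPM in PV and from 156 to 225 in SST, but did not exceed 24.8 in EXC or VIP. Cacna2d2 held 93.5% to 98.7% of the length-scaled sum of the pair in PV and at most 72.2% elsewhere. Cacng5, a stargazin relative that binds AMPA receptors, did not exceed 1.51 CPM in PV and ran from 6.64 to 160 elsewhere.

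Among other potassium channel genes Kcnk3 and Lrrc38 were separated higher and Kcnj2, Kcnk9 and Kcnt2 lower. Kcnk3 and Kcnk9 encode the related leak channels TASK-1 and TASK-3. Kcnk3 ran from 29.1 to 69.0 CPM in PV (median 46.1) against at most 27.6, while Kcnk9 ran from 0.430 to 1.94 CPM in PV (median 1.28) against 12.5 to 69.3. The 2 leak channel genes thus separated PV in opposite directions. Lrrc38, an auxiliary subunit of BK channels, ran from 12.9 to 24.5 CPM in PV, up to 8.54 in VIP and up to 0.417 in EXC. Trpc6, a cation channel gene, ran from 1.01 to 3.13 CPM in PV and from 32.0 to 190 elsewhere.

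Receptor genes that set PV apart were mostly low. The GABA receptor genes as a list did not lean that way: of 14 tested, 8 were called higher and 5 lower (median 0.41). Gabrd, the delta subunit of GABA-A receptors that act outside synapses, was the separated higher member of these 14. It ran from 86.5 to 195 CPM in PV (median 113), up to 40.7 in EXC, up to 26.0 in SST and up to 3.87 in VIP. Gabra2 and Gabrb1 were among those separated lower. Gabra2 ran from 1.07 to 5.63 CPM in PV against 28.9 to 92.4. Of 16 ionotropic glutamate receptor genes 9 were called lower and 4 higher (median -0.81), and of 7 metabotropic ones 6 were called lower and 0 higher (median -2.08). Over all genes 23.6% were called lower and 20.4% higher. Gria2, the AMPA receptor subunit that blocks calcium entry, ran from 287 to 475 CPM in PV (median 393) and from 1024 to 3515 elsewhere. Grin3a ran from 4.52 to 17.6 CPM in PV against 38 to 534. Grm7 and Grm8 were among those separated lower, Grm7 with 4.38 to 14.9 CPM in PV against 51.2 to 259. Shisa6, which encodes an AMPA receptor partner, had the widest gap of the 12 named lower genes, with 4.71 to 12.3 CPM in PV (median 6.27) and 231 to 550 elsewhere, an 18.8-fold gap.

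Peptide receptors followed the same direction. Of 22 tested, 13 were called lower and 4 higher (23.6% and 20.4% of all genes), with a median of -2.05. Npy1r and Npy2r, receptors for neuropeptide Y, were separated lower under both scalings, as was Crhr1. Sstr1 and Npy5r were separated lower in plain CPM but not with TMM. With TMM 2 peptide receptor genes were separated higher and 3 lower, against 0 and 5 in plain CPM. Npy1r ran from 0.313 to 3.97 CPM in PV, with PV replicate 3 highest, against 7.86 to 16.8 in SST, 70.9 to 130 in EXC and 236 to 295 in VIP. Penk, the enkephalin precursor, ran from 3.26 to 13.6 CPM in PV against 39.1 to 852. Tac1, the substance P precursor, was high in PV (77.5 to 193 CPM) but overlapped SST (45.2 to 134). Oprd1, the delta opioid receptor, ran from 66.9 to 159 CPM and was blocked by SST replicate 6 alone, at 68.0.

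The matrix genes Hapln4, Adamts15 and Adamtsl5 were among the 20 separated higher genes with the widest gap. The adhesion and cytoskeletal genes described below were not. Hapln4, a link protein of perineuronal nets, ran from 141 to 327 CPM in PV (median 228) against at most 55.5. Adamts15, a protease that cuts net proteoglycans, ran from 27.1 to 61.9 CPM (median 38) against at most 6.20. Adamts8, which lies 20109 bases from Adamts15 on chromosome 9, ran from 12.2 to 57.0 CPM against at most 4.99, and Adamtsl5, a related protein without the protease domain, from 8.55 to 24.1 against at most 1.09. Mme, the membrane peptidase neprilysin, ran from 128 to 288 CPM against at most 85.1. Acan, the core proteoglycan of the nets, had 5.81 to 19.8 CPM in PV and missed separation through EXC replicate 5 at 7.37. Over the 18 net and matrix genes tested, 9 were called higher and 3 lower (20.4% and 23.6% of all genes), and the median log2 fold change was 0.22. Chst15, which sulfates chondroitin chains, was lower, with 0.362 to 3.75 CPM in PV against 24.9 to 131.

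Nefh, the heavy neurofilament of thick axons, ran from 91.7 to 205 CPM in PV (median 154) against at most 41.2. Its partner Nefm did not separate, with 67.8 to 100 CPM in PV and 84.9 to 314 in EXC. Ank1, an ankyrin that ties membrane proteins to spectrin, ran from 129 to 320 CPM in PV, from 65.9 to 101 in SST and from 2.50 to 13.7 in EXC. Cntnap4, a neurexin relative, ran from 85.2 to 199 CPM in PV, and SST replicate 3 came closest at 84.4.

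**Figure D3:**
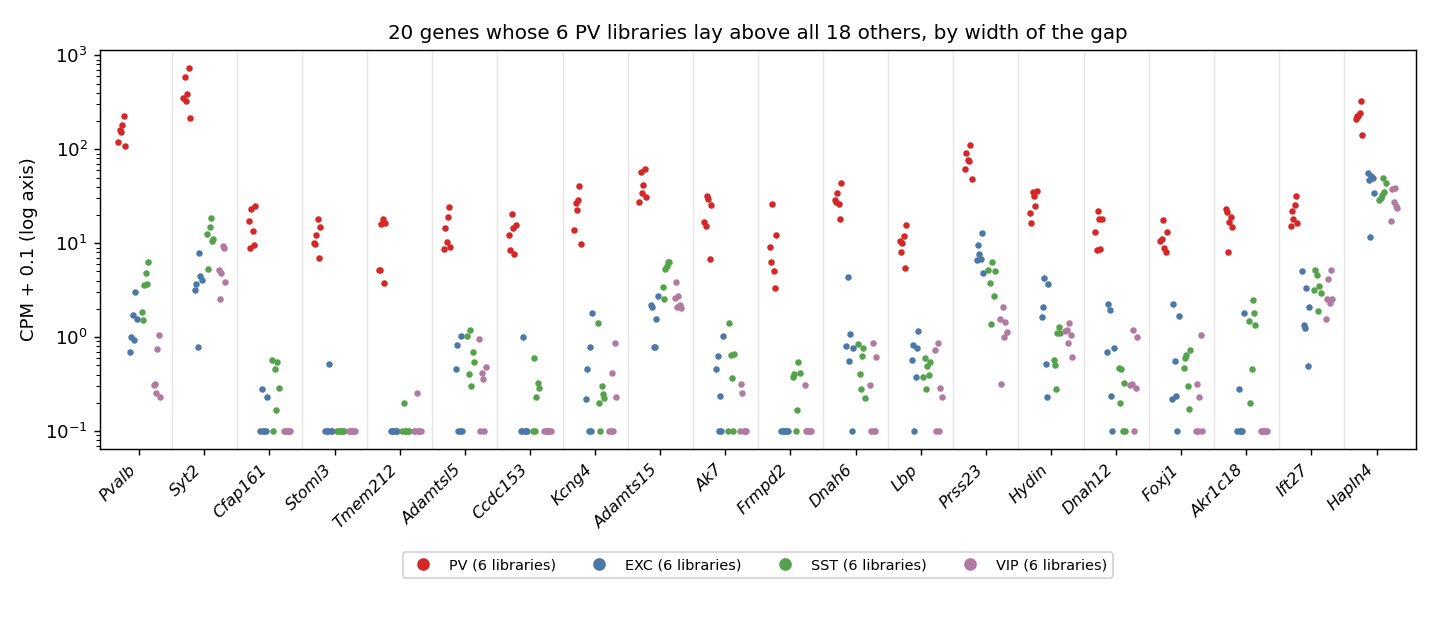
CPM plus 0.1, on a log axis, of the 20 separated higher genes with the widest gap, 1 point per library. Every red PV point lies above all points of the other subtypes for each gene, from Pvalb (107 to 228 against at most 6.20) to Hapln4 (141 to 327 against at most 55.5).

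Genes of energy metabolism were called higher in large numbers. Of 37 nuclear complex I genes 35 were called higher and 0 lower (median 1.09), of 26 in complexes II to IV 24 and 0 (1.17), of 15 ATP synthase genes 15 and 0 (1.36) and of 19 TCA cycle enzymes 18 and 0 (1.00), against 20.4% of all genes and a median of -0.10. In plain CPM 1 of the 97 genes in these lists, Cox6a2, was separated higher, beside 1.03% of all genes. With TMM 52 were, beside 4.01% of all genes. Of 10 protein genes of the mitochondrial genome 9 were called higher (median 2.63) and 0 were separated in plain CPM. Cox6a2, a muscle-type subunit of cytochrome oxidase, ran from 10.3 to 36.3 CPM in PV (median 22.3) against at most 7.26. Ppargc1a, the coactivator that drives mitochondrial gene programmes, ran from 349 to 695 CPM in PV (median 576), just above SST replicate 4 at 339. Esrrg, a nuclear receptor that works with it, ran from 164 to 355 CPM (median 258) against at most 86.6. Ldhb ran from 149 to 299 CPM in PV against at most 90.5, while Ldha, the other lactate dehydrogenase, ran from 12.1 to 34.1 against 24.8 to 118. Ldhb was 92.3% to 95% of their length-scaled sum in PV and at most 67.1% elsewhere. Got1 and Etfa, chosen after their values were seen, were separated higher as well, Got1 with 558 to 1178 CPM against at most 454.

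Genes on the lists of motile cilia and ependymal cells made up 18 of the 154 separated higher genes. Motile cilia beat on ependymal cells, which line the ventricles, and Foxj1 is the factor that switches their programme on. Of 14 ependymal cell markers all 14 were called higher in PV and 12 were separated (median log2 fold change 5.31). Of 35 motile cilia genes tested 31 were called higher, 2 lower, and 17 were separated higher (median 3.88). Over all genes 20.4% were called higher, 23.6% were called lower and 1.03% were separated higher. Foxj1 ran from 7.95 to 17.6 CPM in PV (median 10.7) and reached 2.15 in EXC replicate 2. Stoml3, a membrane protein of the stomatin family, ran from 6.88 to 17.8 CPM in PV and had 0 reads in the 12 SST and VIP libraries, where 3 reads of 107098540 would be 0.0280 CPM. It was thus at least 407-fold higher in PV than in these libraries pooled. EXC, where Stoml3 did have reads, is not part of that fold. Tmem212 ran from 3.65 to 17.8 CPM against at most 0.155, and Cfap161 from 8.69 to 24.5 against at most 0.466. The dynein genes Dnah6 (18.1 to 43.9 CPM) and Dnah12 (8.32 to 21.9) and the central apparatus gene Hydin (16.3 to 36.2) did not exceed 4.30 elsewhere.

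The summed level of the 14 ependymal markers was 144, 101, 257, 223, 98.6 and 205 CPM in PV replicates 1 to 6, 0.789 to 13.6 in EXC, 7.59 to 12 in SST and 4.00 to 12.6 in VIP. No marker of the list had 0 reads in any PV library, and 1, 1 and 3 of them had 0 reads in all EXC, SST and VIP libraries. The wider motile cilia list, which includes members that neurons express, summed to 324 to 770 CPM in PV and to 895 to 2034 in EXC. Across the PV libraries the separated cilia genes did not follow the other separated genes. Of the 18 separated genes on the cilia or ependymal lists, 11 were lowest in PV replicate 5 and 6 in PV replicate 2. Of the 136 on neither list, 81 were highest in PV replicate 5 and 66 lowest in PV replicate 6. The 136 also hold genes named for cilia, such as Cfap206, Cfap45 and Cfap70. Of 12 astrocyte, 8 oligodendrocyte, 10 microglia, 4 endothelial, 7 mural and 7 choroid plexus markers tested, 0 were separated in either direction. The shares over all genes were 1.03% higher and 7.31% lower, and lists this short cannot tell 0 from 1.03%. Of the 12 astrocyte markers 6 were called higher and 1 lower (median 0.97), and 1 was called higher against each of the other subtypes. Their sum was 415 to 768 CPM in PV, 277 to 484 in SST, 895 to 4913 in EXC and 1328 to 1799 in VIP. With TMM its mean was 722 in PV, 350 in SST, 2065 in EXC and 1411 in VIP. Whether ciliated cells in the sort or cilia genes in the neurons carry these reads was not tested, and in bulk samples more cells of a type and more RNA per cell cannot be told apart.

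**Figure D4:**
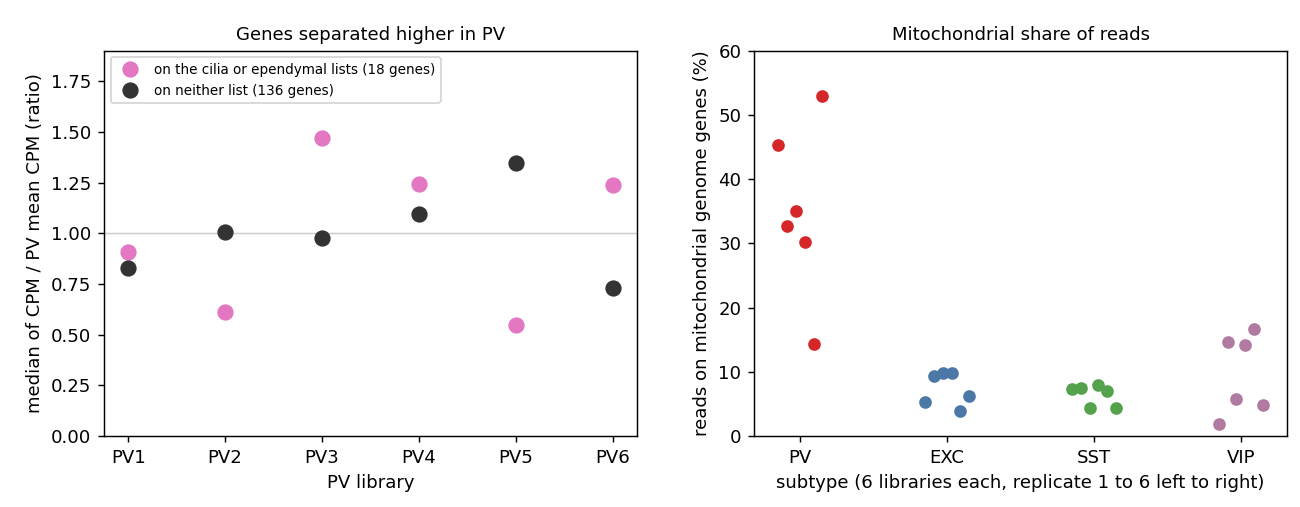
Left, median over genes of CPM divided by the gene's PV mean, by PV library (PV1 is replicate 1), for the 18 separated higher genes on the cilia or ependymal lists and the 136 on neither. Right, percent of reads on mitochondrial genome genes in the 6 libraries of each subtype. The cilia genes are lowest in PV5 (0.549), where the other genes are highest (1.35) and the mitochondrial share is lowest in PV (14.4%).

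Ift27, which encodes a small GTPase of ciliary transport, was the separated member of 30 primary cilium genes tested, of which 8 were called higher and 1 lower. Over all genes 1.03% were separated higher, 20.4% called higher and 23.6% called lower. Ift27 lies 17030 bases from Pvalb on chromosome 15, on the same strand, with Ift27 at chr15:78159460-78174081 and Pvalb at chr15:78191112-78206400. Ift27 ran from 15.1 to 32.0 CPM in PV and reached 5.15 in VIP replicate 5, with a log2 fold change of 3.40 ± 0.28. Like Pvalb it was highest in PV replicate 5, as were 81 of the 136 separated higher genes outside the motile cilia and ependymal lists. Within 100000 bases of each other lay 5 pairs of separated higher genes, of which Ift27 with Pvalb and Adamts15 with Adamts8 involve genes among the named ones.

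Secreted signals and further enzymes were also among the 154. Chosen after their values were seen, Fgf18, Fgf9, Shh, Nog and Tgfb3 encode secreted growth factors, morphogens or, for Nog, an inhibitor of one. Fgf18 ran from 7.04 to 20.3 CPM in PV (median 15.8) against at most 3.73. Fgf9 ran from 45.8 to 91.6 CPM against at most 40.9 and Tgfb3 from 27.2 to 44.4 against at most 22.1. Shh and Nog came close to SST replicate 4, with PV minima of 10.3 and 11 CPM against 9.45 and 8.78. When pool was a covariate their log2 fold changes were 0.19 and -0.08, with adjusted p-values of 0.886 and 0.812. Prss23, a serine protease, ran from 48.4 to 112 CPM in PV (median 76.4) against at most 12.6. Akr1c18, a steroid dehydrogenase whose reads could be shared with related Akr1c genes, ran from 7.95 to 23.1 CPM against at most 2.40. Lbp, which binds lipopolysaccharide, ran from 5.37 to 15.5 CPM against at most 1.05.

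The lower genes held some near-complete absences. Fxyd6, a modulator of the sodium pump, had 0 reads in PV replicates 1 and 2 and at most 1.32 CPM in PV, against 20.4 to 66.0 in EXC, 74.3 to 196 in SST and 166 to 560 in VIP. Synpr, the vesicle protein synaptoporin, ran from 10.1 to 19.4 CPM in PV against 188 to 4657. Kctd12, an auxiliary subunit of GABA-B receptors, ran from 16.3 to 28.8 CPM against 175 to 688. Arpp21 ran from 11.9 to 29.1 CPM against 162 to 768, and Lingo2 from 0.313 to 7.29 against 38.9 to 118, with PV replicate 3 highest in PV. Adarb2 and Nr2f2, which mark interneurons from the caudal ganglionic eminence, were separated lower from SST and EXC as well as VIP. Adarb2 did not exceed 2.01 CPM in PV and ran from 8.14 in SST replicate 6 to 1467 in VIP replicate 1. Of 10 lineage genes of that kind 9 were called lower and 0 higher (median -3.71). Over all genes 23.6% were called lower and 20.4% higher, with a median of -0.10. In all, 19 of the 1089 lower genes had 0 reads in all 6 PV libraries.

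**Figure D5:**
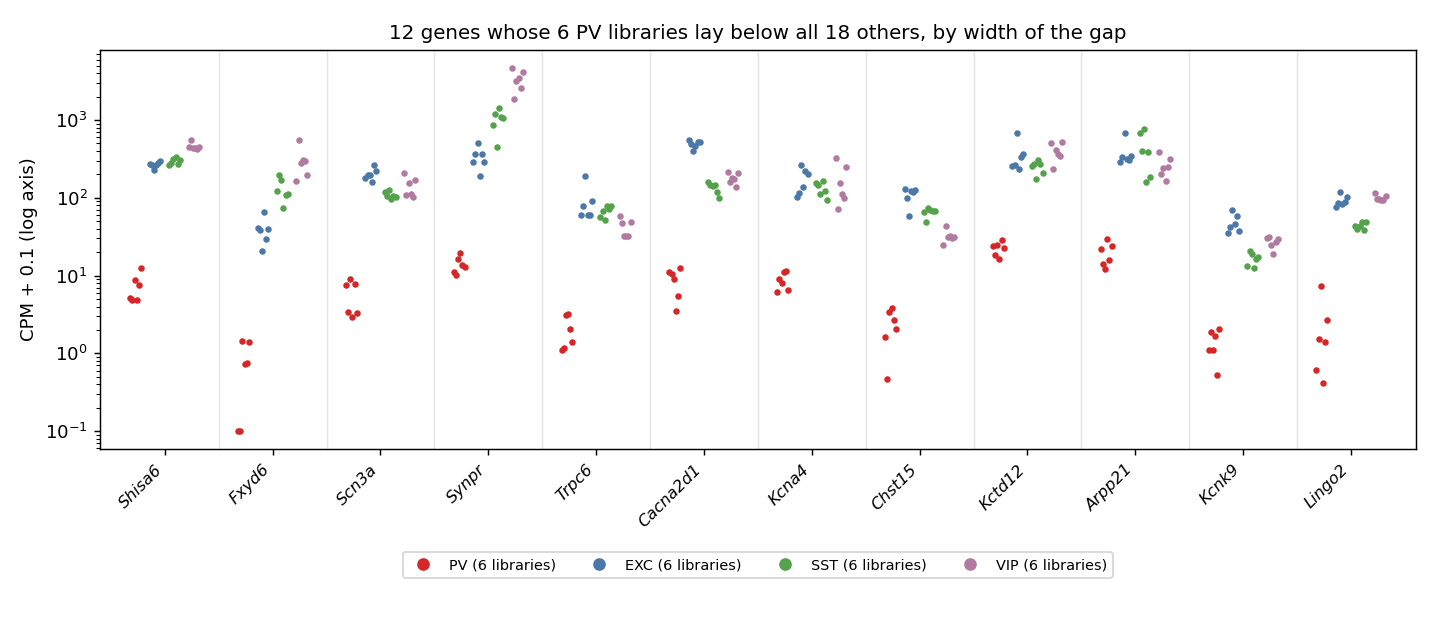
CPM plus 0.1, on a log axis, of the 12 separated lower genes with the widest gap among those at 10 CPM or more in each other subtype, 1 point per library. Every red PV point lies below all others, from Shisa6 (4.71 to 12.3 against at least 231) to Lingo2 (0.313 to 7.29 against at least 38.9).

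Adding EXC to the comparison removed many genes that set PV apart from the other interneurons. From the 12 SST and VIP libraries alone 273 genes were separated higher, of which 154 (56.4%) stayed when EXC was included and 119 were lost. From the 6 EXC libraries alone 669 were separated higher, of which 23.0% stayed. In 18 of the 119 lost genes the EXC mean exceeded the PV mean. Nefm was one, with a log2 fold change of -0.85 against EXC, 1.47 against SST and 4.15 against VIP. Npnt, a matrix protein, had 38.1 to 81.2 CPM in PV and 46.9 to 117 in EXC, against at most 17.6 in SST or VIP. Kcnab2, a Kv1 auxiliary subunit, had 80.7 to 204 CPM in PV and 164 to 629 in EXC, and Adamts1 16.1 to 40.4 and 9.61 to 60.9. The highest of the 18 other libraries was an SST library for 70 of the 154 genes (45.5%), EXC for 47 (30.5%) and VIP for 37 (24%).

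A single library kept 98 genes from being separated higher, and for 29 of them it was EXC replicate 6. That library also had the highest sums of astrocyte (4913 CPM), oligodendrocyte (3304 CPM), endothelial (197 CPM) and mural (189 CPM) markers, and the part these play was not tested. Prelp, a matrix proteoglycan, is an example, with 22.6 to 77.5 CPM in PV, 65.3 in EXC replicate 6 and at most 6.81 in the other EXC libraries. At the edge of the criterion, Trmt2b (lowest PV library 23.2 CPM) and Gas6 (42.6 against 42.4 in VIP replicate 3) lay just inside. Kcnab3, with 50.4 CPM in PV replicate 6 and 50.5 in VIP replicate 6, and Gpr176, with 71.7 and 71.8 in VIP replicate 2, lay just outside. The shallow PV replicate 6, with the largest mitochondrial share, was the lowest PV library for 66 of the 154 genes, and 222 genes were separated higher without it. PV replicate 5 was the highest PV library for 482 of the 1089 lower genes, and 1583 were separated lower without it. Without PV replicates 1 and 6, whose mitochondrial share was over 40%, the counts were 335 higher and 1198 lower. Leaving out a library can only add genes to either set.

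Across all genes, 3042 were called higher and 3507 lower in PV against the mean of the other subtypes (20.4% and 23.6%), and 965 and 967 were called in the same direction against each of EXC, SST and VIP (6.48% and 6.49%). The 154 separated higher genes were all among the former and all among the latter, with log2 fold changes from 1.32 to 9.09. Of the 441 lower genes 415 were called lower against each subtype. Within POOL6188, where 5 EXC libraries share the pool with PV, 153 of the 153 higher genes that could be tested were called (21.8% of all genes there were called higher). The genes were chosen for PV values above these same EXC libraries, so this count was nearly fixed by the choice. Neither it nor the counts above add independent support. With pool as a covariate in the whole set, 84 of the 154 were called and 146 kept a positive sign, and of the 20 with the widest gaps 9 were called. Cfap161, Stoml3, Tmem212, Adamtsl5, Ccdc153, Kcng4, Ak7, Frmpd2, Lbp, Foxj1 and Akr1c18 were not, nor were Cox6a2, Kcns3, Lrrc38 and Eya4. With the same covariate 423 of the 441 lower genes kept a negative sign. The log2 fold changes of the 12 lower genes with the widest gaps were then 2.39 to 8.17 in size. In that fit the step from POOL6188 to the pools of SST and VIP rests on EXC replicate 3, the 1 EXC library outside POOL6188, so against SST and VIP the pool and the subtype cannot be told apart.

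Few genes were called between the sexes within PV, and with 3 libraries of each sex this does not measure how large sex differences are. Between the 3 female and 3 male PV libraries 2 genes were called higher in females (0.019% of 10528 genes tested), Xist and Tsix, and 3 lower (0.0285%), Kdm5d, Uty and Ddx3y, none of which was among the 154. Xist and Tsix overlap on opposite strands, and no source used here gives the strand setting of the counting, so their reads cannot be told apart.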

How the data were processed

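Libraries of sorted cortical neurons (6 each of EXC, PV, SST and VIP) were analysed from the deposited counts, which per the file headers are reads aligned uniquely to a gene model. Per the submitters' processing notes reads were aligned with GSNAP to GRCm38. No source used here gives the counting tool, annotation release, strand setting or GSNAP version. The authors also deposited RPKM values adjusted by size factors, which were used for shares within gene pairs and as an alternative scaling. Replicates are numbered in accession order.

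Of 36528 genes 31126 had a symbol by RefSeq or GENCODE identifier. Promoters are RefSeq GRCm38.p6. Genes were kept by filterByExpr, scaled by TMM and fitted with subtype and sex terms over all 24 libraries in edgeR 4.0.16 (R 4.3.3), with the quasi-likelihood test and Benjamini-Hochberg adjustment over all genes. A gene was called at an adjusted p under 0.05. The SE is the log2 fold change divided by the square root of F. On simulated counts for the comparison with the mean, 64% of 100 genes changed 2-fold and 95% of 100 changed 4-fold were recovered, with 3 false calls among 14737 genes. The simulation gave every gene the same dispersion and every library the same profile, apart from the changed genes in PV. It held no pool, mitochondrial or other subtype differences, so its rates need not hold for these libraries. Separation was counted in plain CPM. Alternatives covered scaling, filters, depth, pool, DESeq2 1.42.0 and leaving out each library.

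Named genes were the 20 separated higher (at least 10 CPM in PV) and 12 separated lower (at least 10 CPM in each other subtype) with the widest gap, members of 48 gene lists, genes that lost separation through EXC or 1 library, those beside the threshold, and Pvalb, Sst, Vip, Slc17a7, Gad1 and Gad2. Not all are described, and some are not reported here. Other genes are said to be chosen after their values were seen. The members, lists and tests were chosen with earlier results of these data known. Counting limits use a floor of 3 reads and cover counting error only.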

Additional observations from a re-analysis of the deposited data

Results flagged for a closer look

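In groups of 6 libraries the highest or lowest value was compared with its nearest neighbour, and a gap above Dixon's 95% critical value, as a share of the group's range, was noted. Of 338 such groups checked, over the named genes (for EXC, SST and VIP where 1 library reached 10 CPM), the mitochondrial share and the total reads, 30 had such a library, and chance gives about 1 in 20. The difference of single libraries from their group was given no further test.

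Among the PV libraries, replicate 3 stood above the others for 3 genes that are low in PV, Lingo2 (7.29 CPM), Npy1r (3.97 CPM) and Syt6 (4.64 CPM), and replicate 5 for Adamts8 (57.0 CPM).

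In EXC, replicate 3 stood apart most often. It was high for Trpc6 (189.9 CPM), Kctd12 (688 CPM), Arpp21 (684 CPM), Scn1a (207 CPM), Kcnab2 (629 CPM), Grm7 (145 CPM) and Adarb2 (112 CPM), and low for Gabrd (4.8 CPM), Cox6a1 (23.3 CPM) and Nefl (159.9 CPM). It is the EXC library outside POOL6188. EXC replicate 6 was high for Kcnk3 (11.1 CPM) and Prelp (65.3 CPM), and EXC replicate 5 for Cntnap4 (17.6 CPM) and Npy2r (183 CPM).

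In VIP, replicate 2 was high for Shisa6 (550.1 CPM), Fxyd6 (560.5 CPM) and Kcnc1 (486 CPM) and low for Esrrg (31.8 CPM). VIP replicate 5 was high for Fbln7 (10.9 CPM), Sst (18.3 CPM), Slc17a7 (25.0 CPM) and Nefl (40.6 CPM). In SST, replicate 2 was low for Chst15 (49.2 CPM), replicate 3 low for Gad2 (3984 CPM), replicate 4 high for Kcnt2 (79.0 CPM) and replicate 6 high for Tmem132c (35.9 CPM).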

How the results depend on the processing

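Counts of separated genes moved with scaling and with the width of the gap. The higher and lower counts, 154 and 1089 in plain CPM, were 597 and 441 with TMM, 658 and 429 without mitochondrial genes in the totals, 606 and 457 with DESeq2 size factors and likewise 606 and 457 with the authors' RPKM. A gap of at least 2-fold left 49 and 180. Without PV replicates 1 and 6, an alternative chosen after seeing the data, 335 were higher. Requiring both CPM and TMM separation, also chosen then, left 441 lower. Leaving out each library in turn gave 154 to 222 higher and 1090 to 1583 lower. Thinning every library to 1548907 reads gave 119 and 771. Against the mean of the other subtypes, library totals gave 1276 higher and 6636 lower, pool as a covariate 990 and 2168, and a 2-fold minimum 1345 and 2126, beside 3042 and 3507. Leaving out 1 library gave 2602 to 3193 and 2944 to 3729. Against each subtype, totals gave 348 and 2761 beside 965 and 967, pool as a covariate 221 higher, and leaving out 1 library 803 to 1108 and 801 to 1095. Within POOL6188 totals gave 1290 and 4541 beside 2711 and 2974. Female against male within PV gave 14 genes without the filter beside 5. Of 111 named genes 71 kept their side of the threshold under all 36 alternatives each was fitted with. Those of the 71 called under the main settings also kept their direction. A change of direction was not counted where a gene was uncalled under both the main settings and the alternative. Among genes called under the main settings, the direction turned with pool as a covariate for Cox6a1 (-0.27), Vamp2 (-0.14), Prelp (-2.32), Nog (-0.078) and Nefl (-0.34). It also turned with totals for Vamp2 (-0.14) and with 1 coefficient for the 18 libraries for Gad2 (-0.16). The cause of these moves was not tested, apart from those fixed by construction. No paired analysis was possible because neither the labels nor the columns carry replicate numbers. Depth limits genes under 10 CPM, which is 15.5 reads in PV replicate 6.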
